A study of Mus musculus with 4 samples.

Results

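Loss of the RNA exosome subunit Exosc3 in mouse embryonic stem cells was accompanied by lower RNA of Mov10, Stat2, Irf9, Bst2, Ifitm1 and Ifitm2, genes of the interferon response and of defence against foreign RNA. Irf9 and Ifitm2 lost their call under some alternative processings, and 30.1% of all tested rows were called lower as well. These are 6 of 9 genes chosen by name: the RNA helicase gene Mov10, the interferon transcription factor genes Stat2 and Irf9, the antiviral membrane protein genes Bst2, Ifitm1, Ifitm2 and Ifitm3, and the RNA sensor genes Ddx58 (RIG-I) and Ifih1 (MDA5). Each of the 9 had 1 row among the 22883 rows of the deposited expression table. Of these, 8 were high enough to be tested and Ifih1 was not. Earlier results of these data were known when the 9 were chosen.

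The cells were clones derived from V6.5, a mouse embryonic stem cell line, grown without feeder cells. All carried a conditional Exosc3 knockout in which the gene stays on while doxycycline is in the medium. The Exosc3-present group (2 libraries) stayed in 0.1 µg/ml doxycycline, and the Exosc3-depleted group (2 libraries) had been without it for 3 days. No group of unmodified V6.5 cells was analysed here, doxycycline and Exosc3 changed together and cannot be told apart, and the number of clones behind the libraries is not given. Total RNA was depleted of ribosomal RNA and sequenced as stranded paired-end libraries. Nothing in the labels ties the 2 libraries of a group to separate cultures, so the p-values measure only the spread between these libraries, which may be technical.

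Type I interferons bind the receptor IFNAR1/IFNAR2, whose kinases JAK1 and TYK2 phosphorylate STAT2. STAT2 joins IRF9 in the complex ISGF3, which binds the interferon-stimulated response element of antiviral genes. Upstream, RIG-I and MDA5 detect unusual RNA in the cytoplasm and signal through MAVS to induce interferon. Embryonic stem cells are known for weak interferon production and a weak response to it, while keeping a set of antiviral genes on without a stimulus. MOV10 binds RNA, works with UPF1 and Argonaute proteins, and restrains retroelements and viruses.

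Values are FPKM, fragments divided by the length of the gene model in kilobases and by the library total. These totals were 38095698 to 60851774 fragments, lower in both Exosc3-depleted libraries than in both Exosc3-present ones, and 16151034 to 30253611 fragments lay in listed gene models. Exosc3 itself was at 24.2 and 23.2 FPKM in the Exosc3-present libraries and at 0.635 and 0.691 in the Exosc3-depleted ones, 35.8-fold lower on the means. Of 8 embryonic stem cell marker genes with a row, 5 fell (62.5%), where 30.1% of all tested rows were called lower. The 8 genes summed to 3132 and 3146 FPKM with Exosc3 against 1984 and 1332 without it. The leukocyte marker genes summed to 18.9 to 20.6 FPKM with Exosc3 and 17.3 to 21.6 without it. Of 10 with a row, 2 were at 0 in all 4 libraries, 5 had a value too low to be tested and 3 were tested. The fibroblast marker genes summed to 7.13 and 7.92 FPKM with Exosc3 and to 12.1 and 9.002 without it. Of 9 with a row, 2 were at 0 throughout, 3 had a value too low to be tested and 4 were tested. Among 3 tested leukocyte markers, 1 was higher and 1 lower. Among 4 tested fibroblast markers, 2 were higher and 1 lower. Of all tested rows, 12.6% were higher and 30.1% lower. What the lower stem cell markers contribute to the results below was not tested. In bulk RNA, fewer cells that express a gene and less RNA per cell cannot be told apart.

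Much of the table differed between the 2 groups, and the counts below are read against that. Among 9336 tested rows, 2806 were lower and 1177 higher (limma on log2(FPKM + 0.5), Benjamini-Hochberg adjusted p under 0.05), so 30.1% of rows were called lower and 12.6% higher. The median tested row differed by -0.27 (log2, depleted minus present). Both shares and this median depended on the scaling, as given further below. Libraries of a pair differed more in the Exosc3-depleted group (SD of log2 differences across rows 0.432) than in the Exosc3-present group (0.188). Where 1 library was left out, the spread came only from the other group's pair, so a lost or gained call can reflect that spread. Of the 8 tested genes described here, 6 were lower, none was higher and 2 were not called, and their median log2 difference was -1.08. Since the genes were chosen with earlier results of these data known, their contrast with all rows is a description and not a test. With no filter on low values, 6 of the 9 genes were lower and none higher, against 18.7% lower and 11.3% higher of all 15471 rows above 0. Because 0.5 is added before the logarithm, log2 differences of low genes come out too small, and fold values are given as ratios of mean FPKM.

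The promoter sequences are shown first, because most of these genes are known for control through the interferon-stimulated response element. RefSeq windows of GRCm38.p6 running from 250 bases before to 50 bases after each gene start were searched on both strands for GAAA, any 2 bases and GAAA again, the core of that element (the GAAA pair), and for TTCNNNGAA, the core of the site bound by pairs of STAT proteins. The GAAA pair was found in 1131 of 32851 windows (3.44%) and TTCNNNGAA in 2726 (8.3%). Of the 9 genes, 6 had a match to the GAAA pair (Stat2, Bst2, Ifitm2, Ifitm3, Ddx58 and Ifih1), and Bst2 and Ifitm3 also had a TTCNNNGAA match. The 30 bases around each match are written on the gene's strand, with the matches in capitals.
Stat2, plus strand, chr10:128270266-128270295: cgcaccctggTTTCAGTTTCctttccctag
Bst2, minus strand, chr8:71537580-71537609: aTTCCAGGAAAATGAAACTGAAAggctgca
Ifitm2, minus strand, chr7:140955988-140956017: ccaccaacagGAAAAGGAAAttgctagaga
Ifitm3, minus strand, chr7:141010714-141010743: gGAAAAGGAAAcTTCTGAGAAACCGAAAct
Ddx58, minus strand, chr4:40239804-40239833: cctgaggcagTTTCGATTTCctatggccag
Ifih1, minus strand, chr2:62646206-62646235: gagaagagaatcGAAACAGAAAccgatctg

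The Bst2 run holds 2 matches to the GAAA pair that overlap each other and a TTCNNNGAA match that overlaps the first of them, beginning 136 bases before the gene start. In Ifitm3, the TTCNNNGAA match begins 14 bases after the start and overlaps the second of its 2 matches to the GAAA pair. The Stat2 match begins 222 bases before the start and the Ifitm2 match 46 bases before it. Those of Ddx58 and Ifih1 begin 3 and 33 bases after it. Neither motif was found in the windows of Mov10, Irf9 or Ifitm1, which says only that these letters are not in those windows. The letters did not sort the 9 genes by their change: Mov10, Irf9 and Ifitm1 fell without a match, and Ifitm3 and Ddx58 were not called with one. Across 6396 tested rows with a window, 34.1% of the 208 with the GAAA pair were lower against 31.1% of all 6396, and 10.6% were higher against 11.4%. For the 489 with TTCNNNGAA the shares were 31.7% lower and 8.18% higher.

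Bst2 and Mov10 are shown at full upstream length as a gene with 3 overlapping matches and the gene with the largest change. The 250 bases before each gene start follow, with matches again in capitals. Mov10 has 2 annotated starts, each with a window, and the sequence before the outer one is shown.
Bst2, minus strand, chr8:71537473-71537722: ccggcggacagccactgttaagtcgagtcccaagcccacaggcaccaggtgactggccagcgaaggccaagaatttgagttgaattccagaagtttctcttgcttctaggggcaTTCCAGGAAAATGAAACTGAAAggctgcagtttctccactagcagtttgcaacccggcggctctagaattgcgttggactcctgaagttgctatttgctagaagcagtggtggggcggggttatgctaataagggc
Mov10, minus strand, chr3:104818564-104818813: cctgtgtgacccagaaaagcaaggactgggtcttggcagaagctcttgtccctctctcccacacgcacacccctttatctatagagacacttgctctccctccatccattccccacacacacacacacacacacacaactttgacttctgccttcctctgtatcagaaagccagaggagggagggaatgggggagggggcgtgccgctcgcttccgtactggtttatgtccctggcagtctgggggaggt

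**Figure D1:**
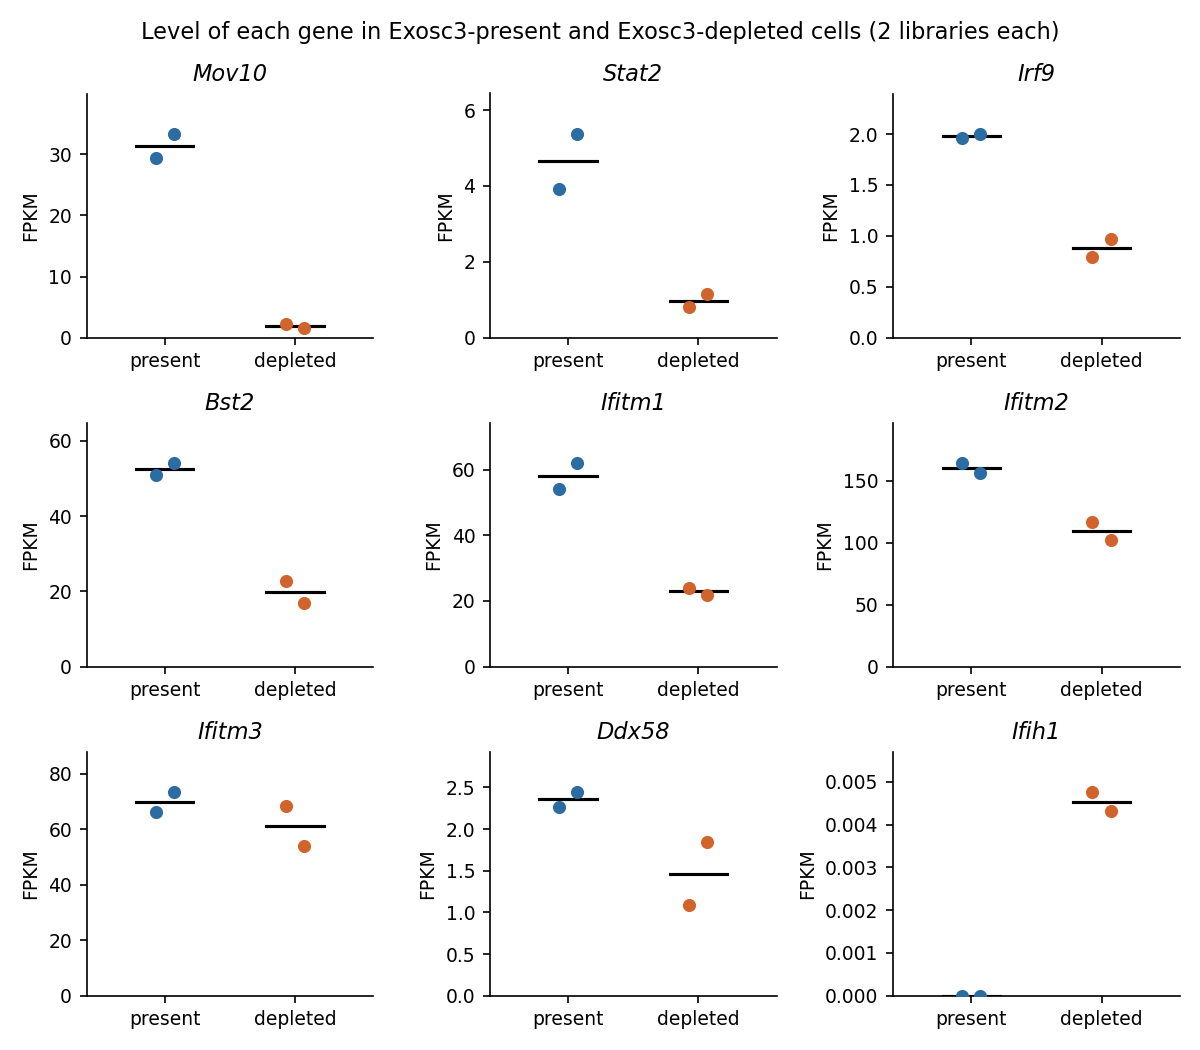
FPKM of each of the 9 genes (vertical axis, from 0, own scale for each gene) in the Exosc3-present and Exosc3-depleted libraries. Points are single libraries and horizontal bars are the means of 2 libraries, and the groups are apart for every gene that fell (Mov10 at 29.4 and 33.3 against 2.17 and 1.52) while those of Ifitm3 overlap.

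Mov10 (uc012cvl.1) had the largest fall of the 9 genes. It was at 29.4 and 33.3 FPKM with Exosc3 and at 2.17 and 1.52 FPKM without it. These levels rest on 6410 and 6598 fragments against 296 and 229 in a gene model of 3588 bases, so the 2 groups are far apart at this depth. Its mean went from 31.3 ± 2.78 FPKM (SD, n = 2) to 1.84 ± 0.456 (SD, n = 2), 17.0-fold lower, with a log2 difference of -3.77 (SE 0.209, limma adjusted p 0.000138). Relative to the median tested row the difference was -3.51. Only 4 tested rows (0.0428%) had a lower log2 difference.

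**Figure D2:**
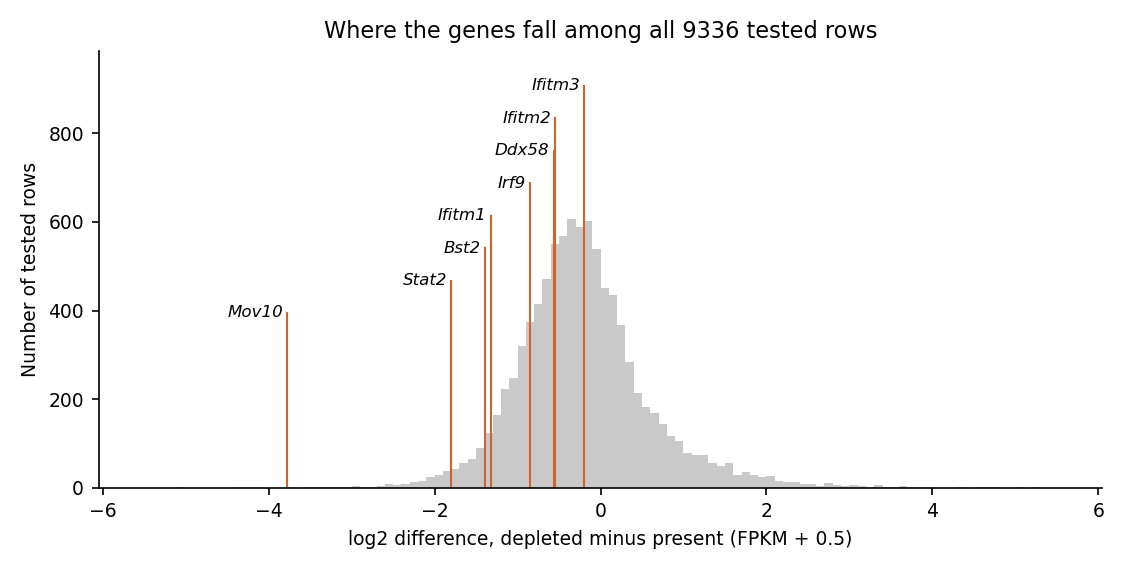
Histogram of the log2 difference (depleted minus present, horizontal axis) over all 9336 tested rows, with the number of rows on the vertical axis and the 8 tested genes marked. Mov10 at -3.77 lies at the far left, and Ifitm3 at -0.20 lies near the median row at -0.27.

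The rows with the pattern most like that of Mov10 over the 4 libraries were Rpl22l1, Mthfd2, Pck2, Inhbb and Nupr1, at Euclidean distances of 0.375, 0.58, 0.584, 0.688 and 0.707 in log2 units from the mean of the Exosc3-present libraries. Rpl22l1, a paralog of a ribosomal protein gene, was at 121.5 and 128.4 FPKM with Exosc3 and at 11.7 and 9.34 without it. Mthfd2 encodes a mitochondrial folate enzyme, Pck2 the mitochondrial PEP carboxykinase, Inhbb an activin and inhibin subunit, and Nupr1 a small stress-responsive nuclear protein. None of these 5 belongs to the interferon lists. Distances of this kind describe 4 libraries only.

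Mov10l1, the germline relative of Mov10 that takes part in the piRNA pathway, was at 1.598 ± 0.407 FPKM with Exosc3 and 0.976 ± 0.291 without it, and was not called (log2 difference -0.51, adjusted p 0.108). The ratio of Mov10 to Mov10l1 was 22.4 and 17.7 with Exosc3 and 2.81 and 1.29 without it. That ratio does not depend on library scaling, and its groups do not overlap. An exact permutation test (two-sided) of a ratio in 2 against 2 libraries cannot go below 0.333, the value it gave here and for every other ratio below.

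Stat2 and Irf9, which encode subunits of ISGF3, both fell. Stat2 (uc007hma.1) was at 3.93 and 5.37 FPKM with Exosc3 and at 0.813 and 1.14 without it, from 1051, 1302, 136 and 210 fragments. No Exosc3-depleted value reaches the lower Exosc3-present one. The means were 4.65 ± 1.01 and 0.976 ± 0.231 FPKM (SD, n = 2 each), 4.76-fold apart, with a log2 difference of -1.80 (SE 0.223, adjusted p 0.00132), and 1.89% of tested rows had a lower difference.

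Irf9 (uc007tzk.2) was at 1.963 and 1.999 FPKM with Exosc3 and at 0.794 and 0.974 without it. Its fragments were 304 and 281 against 77 and 104. The groups are apart, and the means of 1.98 ± 0.0255 and 0.884 ± 0.127 FPKM (SD, n = 2 each) differ 2.24-fold. The log2 difference was -0.85 (SE 0.173, adjusted p 0.00822, unadjusted 95% interval -1.25 to -0.44), and 18.3% of tested rows were lower still. The call was lost without either Exosc3-present library, although the log2 difference stayed at -0.86 without replicate 1 and -0.83 without replicate 2. The SE was 0.371 and 0.374 in those fits, whose spread comes from the Exosc3-depleted pair alone. With libraries scaled without the 50 highest rows, the adjusted p was 0.0524.

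Bst2, Ifitm1, Ifitm2 and Ifitm3 were the genes of the 9 with the highest levels. BST2 (tetherin) holds budding viruses at the cell surface, and the IFITM proteins block viral entry at membranes. Bst2 (uc009mdr.1) was at 51.0 and 54.0 FPKM with Exosc3 and at 22.8 and 17.0 without it, from 2376, 2286, 665 and 546 fragments. Its groups do not overlap, with means of 52.5 ± 2.16 and 19.9 ± 4.1 FPKM (SD, n = 2 each), 2.64-fold apart. The log2 difference was -1.39 (SE 0.196, adjusted p 0.00207), and 4.66% of tested rows were lower.

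Ifitm1 (uc009kja.2) was at 54.11 and 61.95 FPKM with Exosc3 and at 24 and 21.8 without it, from 2226, 2313, 618 and 618 fragments. Both Exosc3-depleted values are less than the lower Exosc3-present value by more than the spread of either pair. The means were 58.0 ± 5.54 and 22.9 ± 1.57 FPKM (SD, n = 2 each), 2.54-fold apart, with a log2 difference of -1.32 (SE 0.172, adjusted p 0.00151).

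Ifitm2 (uc009kiz.1) had the highest level of the 9 genes in every library, at 164.2 and 156.4 FPKM with Exosc3 and 116.7 and 102.5 without it. The groups are apart, but the fall was 1.46-fold, from 160.3 ± 5.48 to 109.6 ± 10.1 FPKM (SD, n = 2 each), with a log2 difference of -0.55 (SE 0.161, adjusted p 0.031). Of tested rows, 32.6% were lower still, and relative to the median row the difference was -0.28. The call was lost under all 3 other scalings (log2 -0.23, -0.13 and -0.21, adjusted p 0.461, 0.487 and 0.272 with median of ratios, quantile normalization and scaling without the 50 highest rows). It was also lost without Exosc3-present replicate 1 (0.297) or replicate 2 (0.238).

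Ifitm3 (uc009kjc.1) was at 66.3 and 73.4 FPKM with Exosc3 and at 68.5 and 53.9 without it, from 2614, 2627, 1692 and 1467 fragments. One Exosc3-depleted value lies between the Exosc3-present ones, so the groups overlap. The means were 69.8 ± 5.03 and 61.2 ± 10.3 FPKM (SD, n = 2 each), and the log2 difference of -0.20 (SE 0.185, adjusted p 0.427) had an unadjusted 95% interval of -0.63 to 0.24, which does not show that the level stayed the same. Its sign turned with the scaling, to 0.12, 0.21 and 0.14 under the 3 others, and without Exosc3-depleted replicate 1 it was called lower (-0.37, adjusted p 0.047).

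The 3 IFITM genes lie close together on chromosome 7 and did not keep their proportions. The ratio of Ifitm1 to Ifitm3 was 0.816 and 0.844 with Exosc3 and 0.35 and 0.404 without it, 2.2-fold lower on the means. The ratio of Ifitm2 to Ifitm3 was 2.48 and 2.13, then 1.7 and 1.9, and that of Bst2 to Ifitm3 was 0.769 and 0.736, then 0.332 and 0.315. Groups did not overlap in any of these 3 ratios. Such a ratio shows unequal change and not which gene changed. The GENCODE M21 transcripts of the 3 genes were 74.0% (Ifitm1 and Ifitm2), 74.1% (Ifitm1 and Ifitm3) and 76.9% (Ifitm2 and Ifitm3) identical over aligned bases. Of runs of 50 bases, Ifitm1 and Ifitm2 shared none, Ifitm1 and Ifitm3 shared 15 and Ifitm2 and Ifitm3 shared 20, and a read that lies wholly in a shared run cannot be placed in 1 gene.

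**Figure D3:**
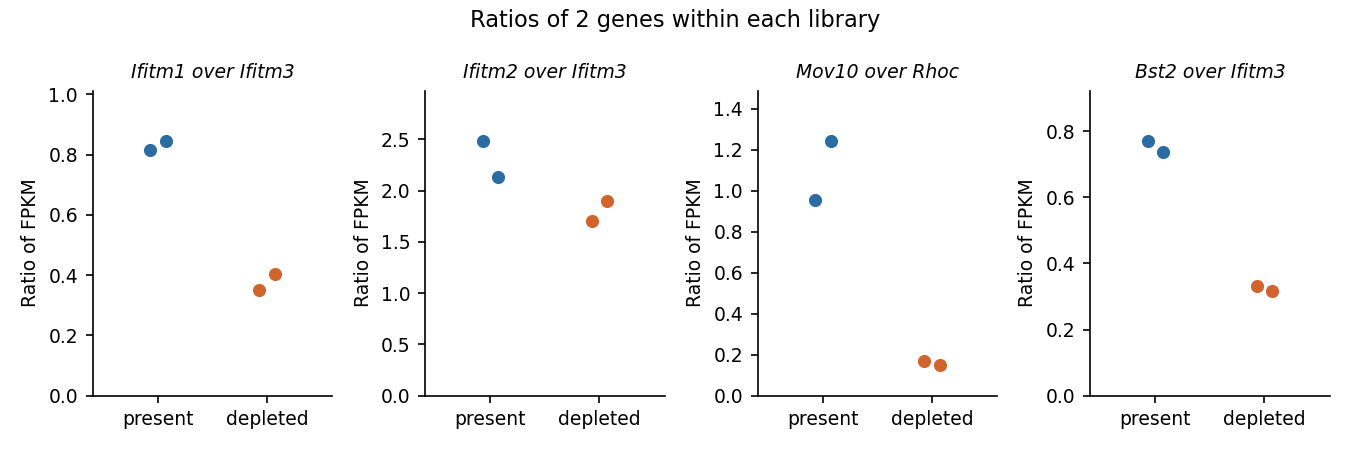
Ratio of the FPKM of 2 genes within each library (vertical axis, from 0), by group, with 1 point per library. Mov10 over Rhoc, its neighbour on the chromosome, goes from 0.956 and 1.24 to 0.171 and 0.148, and Ifitm1 over Ifitm3 from 0.816 and 0.844 to 0.35 and 0.404.

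The RNA sensor Ddx58 (uc008shf.1) was at 2.27 and 2.44 FPKM with Exosc3 and at 1.09 and 1.84 without it. The groups do not overlap, but the Exosc3-depleted libraries differ from each other more than the nearer one differs from the Exosc3-present ones. The means were 2.36 ± 0.122 and 1.47 ± 0.532 FPKM (SD, n = 2 each), with a log2 difference of -0.57 (SE 0.229) that did not pass (adjusted p 0.0862, unadjusted 95% interval -1.11 to -0.02). Without Exosc3-depleted replicate 2, the higher of the pair, the difference was -0.85 (adjusted p 0.000268), and without replicate 1 it was -0.29 (adjusted p 0.0894).

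Ifih1 (uc008jvm.2), the gene of MDA5, was at the limit of detection. It was at 0 in both Exosc3-present libraries, and 1 fragment in each of the Exosc3-depleted libraries gave 0.00476 and 0.00432 FPKM. A count of 0 allows up to 3 fragments, or 0.00893 and 0.00984 FPKM in the Exosc3-present libraries, for counting error only. No fold is given, since every library is at or under that limit.

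**Figure D4:**
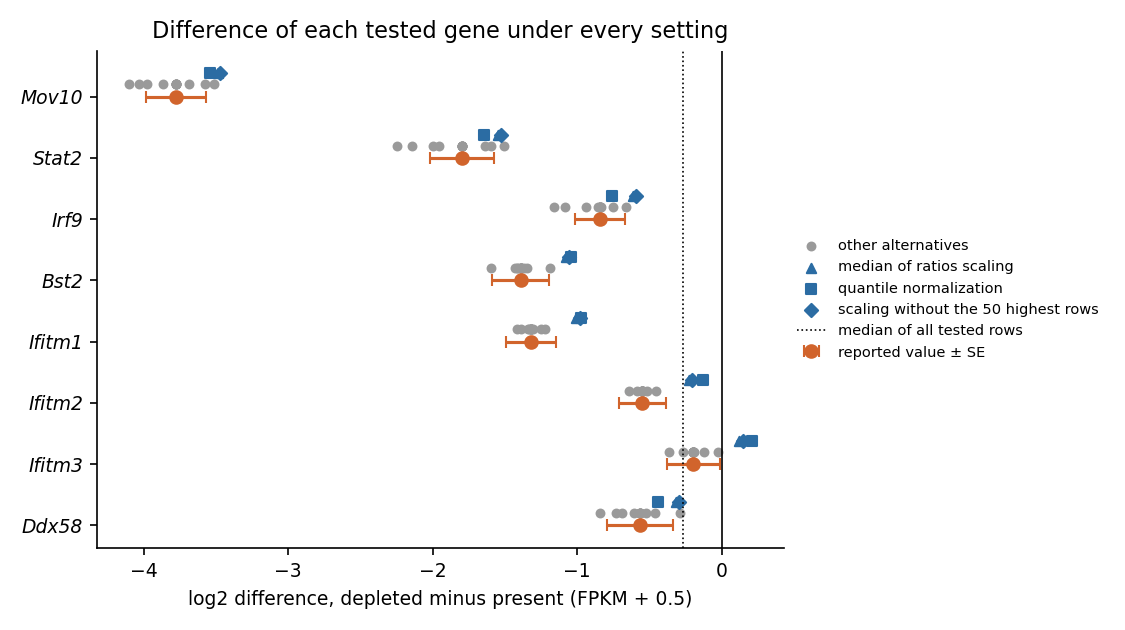
Log2 difference (depleted minus present, horizontal axis) of each tested gene as reported, with its SE, and under each alternative processing. The dotted line is the median of all tested rows at -0.27, and Mov10, Stat2, Bst2 and Ifitm1 stay to the left of it in every setting while Ifitm3 crosses 0.

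Mov10, Stat2, Bst2 and Ifitm1 kept their call under all 16 alternatives. Their log2 differences ranged from -4.10 to -3.47 (Mov10), -2.25 to -1.51 (Stat2), -1.60 to -1.04 (Bst2) and -1.42 to -0.98 (Ifitm1), with highest adjusted p-values of 0.00478, 0.00955, 0.00956 and 0.0109.

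The surrounding pathway was read from gene lists ordered by role. Of 204 genes with a row, without the 9, 26 were at 0 in all 4 libraries, 64 had a value but were too low to be tested and 114 were tested. Of the 114, 31 (27.2%) were lower and 5 (4.39%) higher, with a median log2 difference of -0.27. The share lower is close to the 30.1% of all tested rows, the share higher is under their 12.6%, and the median is that of all rows. Scaling mattered: among 25 named genes called in these lists, 11 lost their call under at least 1 of the 3 other scalings. They were Ifngr2, Ptpn11, Rnf125, Prkra, Mavs, Trim25, Irf3, Pld6, Eif2c2, Parn and Pan2. The counts also moved when 1 library was left out. Fewer falls and fewer rises were called without either Exosc3-present library, and more of both without either Exosc3-depleted one. Such fits take their spread from the other group's pair. These shifts therefore do not show by themselves that the calls rest on the left-out library. Of the 25 genes called among those named from these lists, 12 kept their call wherever they were tested (6 of them in every alternative, while 6 fell under a stricter filter in at least 1) and 13 lost it without at least 1 of the Exosc3-present libraries.

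The interferons themselves were at or near 0. Of 18 ligand genes with a row, 17 were at 0 in all 4 libraries, Ifnb1 (interferon beta) among them. On a model of 1 kilobase, 3 fragments would be 0.0493 to 0.0787 FPKM in these libraries. Ifnz, the other one, had 0, 0, 4 and 3 fragments (0.0718 and 0.0489 FPKM without Exosc3), too low for a test at the filter used. With no filter it was called higher (adjusted p 0.0246), on those few fragments.

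Among receptors and JAK-STAT genes, 1 of 7 tested (Ifngr2) fell, with a median log2 difference of -0.13. Ifnar1 was at 1.73 ± 0.0281 FPKM with Exosc3 and 1.38 ± 0.699 without it and was not called (log2 difference -0.30, adjusted p 0.4). Its Exosc3-depleted libraries disagreed: the difference was -0.69 (adjusted p 0.000863) without Exosc3-depleted replicate 2 and 0.09 (adjusted p 0.579) without replicate 1. Ifnar2 was at 1.78 and 1.84 FPKM with Exosc3 and at 1.91 and 1.96 without it, groups that do not overlap, and was not called (0.08, adjusted p 0.733). Tyk2 was at 5.67 and 5.14 FPKM (log2 difference -0.13, adjusted p 0.605), with a sign that turned under the 3 other scalings. Ifngr2, a chain of the interferon gamma receptor, went from 1.27 to 0.722 FPKM (adjusted p 0.0337, lost without either Exosc3-present library). Stat3, which serves LIF signalling in these cells, was at 17.4 and 13.3 FPKM (adjusted p 0.132, 0.025 without Exosc3-depleted replicate 2).

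Among the brakes of interferon signalling, 3 of 13 tested genes fell and none rose (median -0.30). Pias4, a SUMO ligase that restrains interferon signalling, went from 24.4 to 12.1 FPKM (log2 difference -0.99, adjusted p 0.00526). Rnf125, a ubiquitin ligase for RIG-I, went from 2.43 to 1.10 FPKM (-0.89, adjusted p 0.0171). Ptpn11, the phosphatase SHP2, went from 9.66 to 5.26 FPKM (-0.84, adjusted p 0.0334). All 3 calls were lost without either Exosc3-present library.

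Of 7 tested sensors and editors of nucleic acids, 2 fell and none rose (median -0.40). Zc3hav1, the gene of the zinc-finger antiviral protein that binds CpG-rich viral RNA and recruits the exosome to it, was at 2.45 and 3.08 FPKM with Exosc3 and at 0.382 and 0.68 without it. The groups are apart, and the log2 difference of -1.67 (SE 0.213, adjusted p 0.00141) was called in every alternative except the filter at a mean FPKM of 2, where the gene was not tested. Prkra, the activator protein of PKR, went from 4.19 to 2.27 FPKM (-0.79, adjusted p 0.0315, lost without either Exosc3-present library). Ddx21, an RNA helicase gene, was not called at 53.5 and 32.0 FPKM (log2 difference -0.83, adjusted p 0.0851). It was -1.37 (adjusted p 1.2e-05) without Exosc3-depleted replicate 2 and -0.29 (0.112) without replicate 1. Eif2ak2, which encodes PKR itself, was under the filter at 0.57, 0.469, 0.249 and 0.694 FPKM, with overlapping groups.

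Adaptors and kinases of the sensor pathway gave 2 falls and no rise among 14 tested genes (median -0.02). Mavs, the mitochondrial adaptor of RIG-I and MDA5, went from 4.38 to 2.73 FPKM (log2 difference -0.60, adjusted p 0.0447), and Trim25, a ubiquitin ligase known to activate RIG-I, from 11.6 to 6.28 FPKM (-0.86, adjusted p 0.0236). Each of these calls was lost in 6 alternatives, leaving out either Exosc3-present library among them. Tbkbp1, the third of the list by p, was not called (-0.43, adjusted p 0.0879, 0.0049 without Exosc3-depleted replicate 1).

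The interferon regulatory and NF-kB factors gave 5 falls and no rise among 10 tested genes (median -0.63). Irf8, a factor best known from blood cells, went from 2.28 ± 0.148 to 0.47 ± 0.0446 FPKM (log2 difference -1.52, adjusted p 0.000852). Nfkbia, the inhibitor of NF-kB, went from 22.2 ± 0.339 to 9.32 ± 0.403 FPKM (-1.21, adjusted p 0.00202), and Irf5 from 1.51 to 0.45 FPKM (-1.09, adjusted p 0.00409). All 3 were called in every alternative that tested them, Irf8 and Irf5 being under the filter at a mean FPKM of 2. Irf3, the main factor downstream of MAVS, went from 9.04 to 5.22 FPKM (-0.74, adjusted p 0.0175) and lost its call under all 3 other scalings and without Exosc3-present replicate 1 (0.281) or replicate 2 (0.185). The fifth fall, named after its values were seen, was that of Nfkbie, another inhibitor of NF-kB, from 0.914 to 0.332 FPKM (-0.77, adjusted p 0.00768).

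The interferon-stimulated effectors, a mixed list not limited to targets of ISGF3, gave 3 rises and 2 falls among 13 tested genes (median 0.19). Another 28 genes of the list had a value but were under the filter. With no filter there were 5 rises and 7 falls among 41 genes. Gbp2, a guanylate-binding protein gene known for its response to interferon gamma, went from 0.0633 to 1.04 ± 0.397 FPKM (log2 difference 1.43, adjusted p 0.00202), from 9, 9, 71 and 136 fragments. Parp10 went from 0.488 to 1.56 ± 0.39 FPKM (1.05, adjusted p 0.005). Gbp2 and Parp10 both passed the filter only through the Exosc3-depleted libraries, where they are high, and were not tested with the filter on the Exosc3-present libraries. The third rise, named after its values were seen, was that of Pml, the scaffold of PML nuclear bodies, from 16.9 to 25.4 FPKM (0.58, adjusted p 0.0308). Ifitm5, the bone-expressed neighbour of Ifitm2, fell from 0.887 to 0.244 FPKM (-0.90, adjusted p 0.0043), as did Plscr1, a phospholipid scramblase gene also named after its values were seen, from 3.88 to 2.06 FPKM (-0.77, adjusted p 0.0135). Isg15, which encodes a ubiquitin-like modifier and is among the strongest interferon targets, had 1 fragment in 1 Exosc3-present library, and Ifit1 was at 0 in all 4.

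Antigen presentation genes were split. Tap1, a subunit of the peptide transporter, rose from 1.22 ± 0.0196 to 11.9 ± 2.3 FPKM (log2 difference 2.84, adjusted p 0.000286), the only rise of the list. The other 5 calls among 8 tested genes were falls (median -0.66). H2-K1, a classical class I heavy chain, fell from 15.1 ± 1.03 to 5.01 ± 1.37 FPKM (-1.52, adjusted p 0.00244), and H2-T22 from 1.39 to 0.463 FPKM (-0.96, adjusted p 0.00628, 0.0751 without Exosc3-present replicate 2). Class I genes are near-identical copies of each other, so how reads were split among them is uncertain. The remaining falls, named after their values were seen, were those of the immunoproteasome genes Psmb9 and Psmb10 (-0.59 and -0.72) and of the proteasome activator gene Psme2 (-0.75).

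Partners and relatives of Mov10 and other genes of retroelement defence gave 8 falls and no rise among 25 tested (32.0%, median -0.29). Rnaseh2a, the catalytic subunit of RNase H2, went from 63.5 to 25.8 ± 7.51 FPKM (log2 difference -1.31, adjusted p 0.0042). Senp3, a SUMO protease of the nucleolus, went from 73.4 ± 0.283 to 29.6 ± 0.06 FPKM (-1.30, adjusted p 0.00123). Pld6 of the piRNA pathway went from 1.68 to 0.849 FPKM (-0.69, adjusted p 0.0145, lost without either Exosc3-present library), and Eif2c2, the older symbol for the gene of AGO2, from 8.89 to 4.003 ± 1.82 FPKM (-1.12, adjusted p 0.0211, 0.0895 without Exosc3-present replicate 2). Of these, Rnaseh2a and Senp3 held in every alternative. The list is broad, and nothing in these data ties Senp3 to Mov10 or to retroelement defence.

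Cytoplasmic RNA decay genes, whose products limit the RNA that sensors meet, gave 3 falls and no rise among 17 tested (median -0.27). Dis3l, the catalytic partner of the cytoplasmic exosome, went from 10.3 to 3.03 FPKM (log2 difference -1.64, adjusted p 0.00225) and held in every alternative. Parn and Pan2, 2 deadenylase genes, had log2 differences of -0.70 (adjusted p 0.0169) and -0.56 (adjusted p 0.0475), which were lost without either Exosc3-present library. Skiv2l, the helicase of the SKI complex, was at 10.1 and 8.27 FPKM (adjusted p 0.262, 0.0396 without Exosc3-depleted replicate 1), with a sign that turned under the 3 other scalings.

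**Figure D5:**
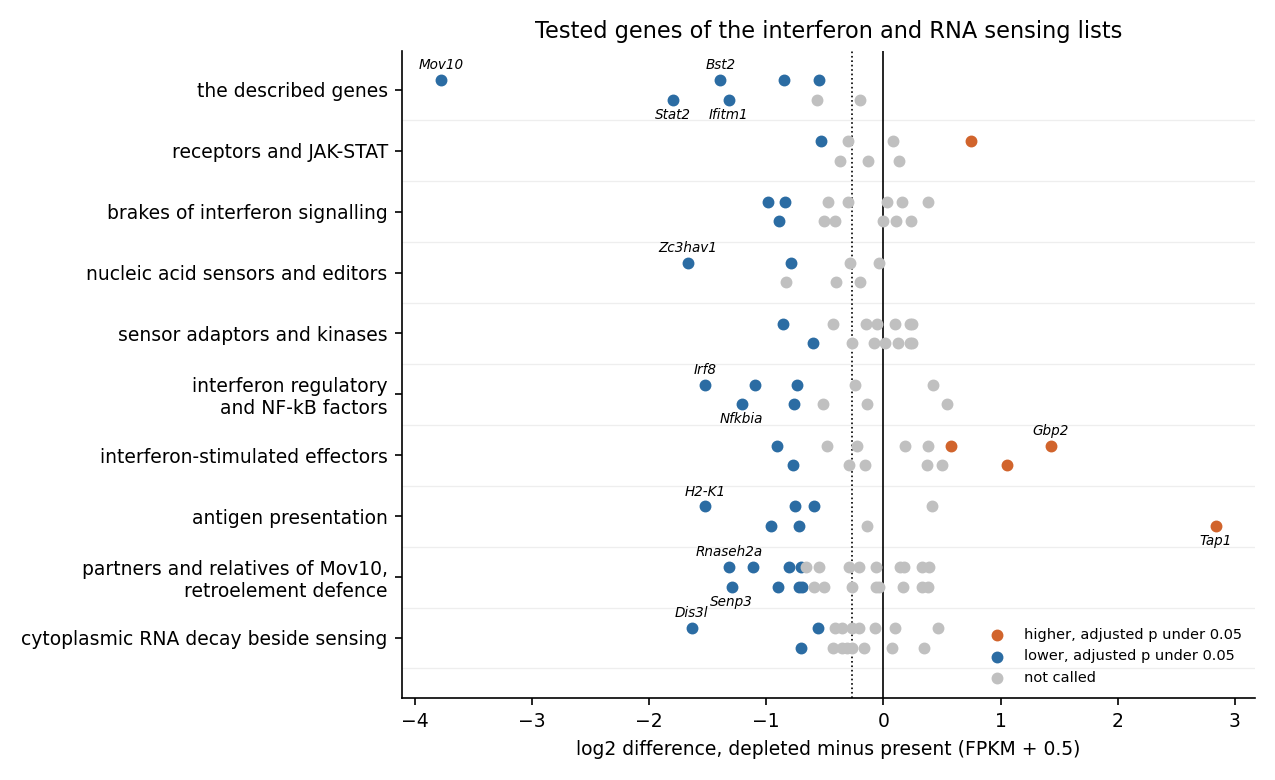
Log2 difference (depleted minus present, horizontal axis) of every tested gene, 1 point per gene and 1 line per list, coloured by whether the gene was higher, lower or not called. The described genes, chosen with earlier results of these data known, have a median of -1.08 and no rise. The dotted line marks the median of all tested rows at -0.27, and Tap1 at 2.84 is the point farthest to the right.

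The chromosomal neighbours of the 9 genes were read from the RefSeq gene order of GRCm38.p6, taking 3 genes on each side. Of 44 neighbouring symbols, 23 had a row and 15 were tested, of which 7 were lower and 1 was higher. Among all tested rows, 30.1% were lower and 12.6% higher, and no test of the neighbours as a set was run. The 9 genes themselves are left out of these counts. Next to Mov10, Ppm1j, a protein phosphatase gene, was at 15.2 and 14.9 FPKM with Exosc3 and at 4.38 and 3.99 without it (log2 difference -1.73, adjusted p 0.000682). Rhoc, a small GTPase gene, was at 30.7 and 26.9 FPKM and then at 12.7 and 10.3 (-1.30, adjusted p 0.00238). On the other side, St7l was at 0.913 and 0.847 FPKM with Exosc3 and at 2.05 and 2.44 without it (0.99, adjusted p 0.00506, 0.0825 without Exosc3-present replicate 2), and Capza1 was at 6.76, 6.49, 4.72 and 10.6 FPKM and was not called. The ratio of Mov10 to Rhoc was 0.956 and 1.24 with Exosc3 and 0.171 and 0.148 without it, so the larger change of Mov10 appears within each library. Near Ifitm3, B4galnt4, named after its values were seen, was at 13.2 and 13.1 FPKM and then at 4.50 and 3.38 (-1.63, adjusted p 0.00127).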

How the data were processed

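Stranded, ribosomal RNA-depleted libraries were made from total RNA that passed a RIN of 8.5, per the labels' protocols. The authors deposited FPKM values for 22883 gene models (UCSC known gene identifiers) in 4 sample columns, as the file headers give them. Builds and tools named in the submitters' processing notes are mm9, STAR, Bowtie2, Picard, bedtools and edgeR, without versions or roles. Whether counting used strand is not given in the sources used here. Fragment counts, model lengths and library totals were recovered from the spacing of the FPKM values. All 15471 rows above 0 came out whole within 0.004 of a fragment. They served depth, limits of detection and limma-voom, not the main test.

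Rows whose mean reached 0.5 FPKM were tested on log2(FPKM + 0.5) in limma 3.58.1 under R 4.3.3, letting the prior variance follow intensity and using no covariates. P-values were two-sided and Benjamini-Hochberg adjusted over 9336 rows. The test and the recovery were tested on simulated data. For the test, the simulation gave both groups equal spread and few changed rows with balanced signs, unlike these data. It therefore checks that the fit runs as meant and does not give the error rate of the calls here. A limit of detection is 3 fragments, and such limits cover counting error only.

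The 9 genes and all gene lists were chosen with earlier results of these data known. Named genes are the 9, Exosc3, the 3 tested genes of each list with the smallest p, a few pathway genes named beforehand (of which Jak1, Adar and Upf1 had no row under these symbols), and the 5 rows most like Mov10. Motif windows and gene order came from RefSeq tables of GRCm38.p6, matched by symbol, and transcripts from GENCODE M21. These differ from the mm9 build of the files, so coordinates belong to the sequences only. Transcripts stand in for the protein comparison that was planned, since proteins were not used here. Alternatives covered the pseudocount, filter, scaling, fit, replicate number and each library left out. A filter that reads only the mean of the Exosc3-present libraries was added after seeing the data. Some named genes are not reported here.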

Additional observations from a re-analysis of the deposited data

How the results depend on the processing

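The counts moved with the scaling. The main split of 1177 rows higher and 2806 lower became 1756 and 1589 with median of ratios, 1578 and 1782 with quantile normalization, and 1544 and 1330 when libraries were scaled without the 50 highest rows. Median of ratios moved the median tested row from -0.27 to 0.01. The 31 pathway genes called lower became 14, 18 and 12 in the same order, and the 5 called higher became 14, 11 and 11. Pathway genes called higher were 9 with no filter, 2 with a filter at a mean FPKM of 2 (where 667 of all rows were higher), 8 with the replicate block and 3 with the filter on the Exosc3-present libraries. Leaving out 1 library at a time gave 1082 to 4715 rows lower and 668 to 2183 higher, 9 to 60 pathway genes lower and 3 to 24 higher, and 4 to 7 of the 9 genes lower, where the lone library is assumed to vary like the other group. The sign of Ifitm3 was reversed with median of ratios (0.12), quantile normalization (0.21) and scaling without the 50 highest rows (0.14). Of the 9 genes, none was called higher in any setting. Labels do not say whether libraries of the same replicate number were handled together. Differences between replicates 1 and 2 of the 2 groups correlated at 0.2436 across rows, which cannot decide it with only 2 pairs. With the replicate block, 3468 rows were lower and 1431 higher, 40 pathway genes were lower, and 7 of the 9 genes were lower, Ddx58 (adjusted p 0.0194) being the addition. Ddx21 was also called there (adjusted p 0.000223). SEs in that fit were nearly equal across the tested genes of the 9, from 0.196 (Ifitm2) to 0.218 (Mov10 and Stat2). Each gene's own spread thus counted for little in these calls. The cause of these shifts was not tested. Depth limits Ifih1, the interferon genes and the 64 pathway genes under the filter.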

Other observations

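The Oas genes, whose products make 2'-5' oligoadenylate on double-stranded RNA and thereby switch on RNase L, were all under the filter used for testing and were looked at after their values were seen. The 8 rows of the family summed to 3.24 and 2.95 FPKM with Exosc3 and to 0.869 and 0.584 without it, from 494, 424, 90 and 73 fragments. Oas1a was at 0.792 and 0.7 FPKM with Exosc3 and at 0.125 and 0.0757 without it, and Oas3 at 0.428 and 0.464 and then at 0.122 and 0.106. Tested without a filter, 7 of the 8 rows were called lower by limma (Oas1a adjusted p 0.00542, Oas3 adjusted p 0.00699), where 18.7% of 15471 rows were lower. The exception was Oasl2 (adjusted p 0.107). Several Oas genes are near-identical copies in a cluster, so how fragments were split among them is uncertain.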
